A study of Mus musculus with 15 samples.

Results

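The 10 genes described here encode 7 matrix metalloproteinases (Mmp2, Mmp3, Mmp9, Mmp12, Mmp13, Mmp14 and Mmp19) and 3 of their tissue inhibitors (Timp1, Timp2 and Timp3), out of 18193 genes measured on 15 arrays of lesional foam cells. They were taken by name: every probe set annotated to exactly 1 of the listed symbols was collected (23 in all), and the probe set with the highest mean represented its gene. Foam cells are macrophages that have filled with lipid inside an artery lesion, and here laser microdissection had lifted them out of sections through the aortic sinus. The mice were C57BL/6. All groups, CHOW included, carried the ApoE-/- genotype, so that none had normal apolipoprotein E. The arrays formed a series of 0, 2 and 14 weeks of a western-type diet, with 5 in each group: CHOW (regular chow to week 22), 2w-WD and 14w-WD (8 weeks of chow, then the western-type diet up to week 22). The 2w-WD mice are labelled as having eaten chow for 20 weeks and the diet for 2 more, but in the series text their diet runs between weeks 22 and 24, which leaves their age uncertain. Since no label ties an array to an animal, the p-values measure only how far these samples spread, and part of that spread may be technical.

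Matrix metalloproteinases are zinc-dependent endopeptidases that are made as inactive proenzymes and cut collagens, elastin, proteoglycans and other proteins outside the cell. Tissue inhibitors of metalloproteinases, the Timp proteins, bind the active enzymes and block them. In atherosclerotic lesions macrophages and smooth muscle cells are known sources of these proteases, which take part in the breakdown of the elastic layers of the artery wall and of the fibrous cap over a lesion.

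Levels are given as log2(intensity + 16), and a level says nothing about how abundant 1 gene was next to another, since probe sets differ in brightness. A gene was tested where its mean over the 15 arrays reached 5.66 (intensity 34.6), which is the median over the probe sets of the array. This held for 9 of the 10 genes and for 11925 genes in all. Mmp13 lay below that level and was tested only in an additional fit without the filter. Genes are called changed where limma's p, adjusted by Benjamini-Hochberg over all genes tested, fell under 0.05. Of the macrophage markers, 9 of 10 lay above the filter, and their mean level per array ran from 11.18 to 11.79 in CHOW, from 10.89 to 11.48 in 2w-WD and from 11.35 to 11.78 in 14w-WD. Heart muscle genes were measured too, with a mean level per array from 6.74 to 10.97 in CHOW, from 9.65 to 12.16 in 2w-WD and from 9.08 to 11.44 in 14w-WD. Array brightness, taken as the percentage of probe sets brighter than 100, ran from 20.4% to 24.7% in CHOW, from 18.2% to 25.7% in 2w-WD and from 22.5% to 27.2% in 14w-WD, so that it was not even over the diet groups. In such captured material fewer cells of a type and less RNA per cell cannot be told apart.

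After 14 weeks of western diet Mmp3, which encodes stromelysin-1, was higher than after 2 weeks, and it was the only one of the 9 tested genes that changed in any of the 3 comparisons. Of the 11925 genes tested in 14w-WD against 2w-WD, 11.2% changed and 10.1% were higher, so that 1 of 9 is near the share over all genes. Of these calls 89.8% were higher, against 69% with quantile normalization, which also moved the median change of all genes to 0.01. The median change without that step was 0.33 over the 9 tested genes and 0.23 over all genes, with 7 of the 9 above 0, and 5 of the 9 had an unadjusted p under 0.05, as did 32.1% of all genes. Mmp9, 1 of these 5, passed the filter only through the 2w-WD arrays, as given with its values, so these counts lend no support. In 2w-WD against CHOW 0 of the 9 changed in limma, where 0% of all genes did. There 2 of the 9, Mmp3 and Mmp9, had an unadjusted p under 0.05, as did 9.76% of all genes, and the median change was -0.22 over the 9 and -0.10 over all genes. Mmp9 was again among those counted, so this count lends no support either. In 14w-WD against CHOW 0 of the 9 changed in limma, where 0.00839% of all genes did. There 0 of the 9 had an unadjusted p under 0.05, against 15.9% of all genes, and the median change was 0.25 over the 9 and 0.16 over all genes.

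**Figure D1:**
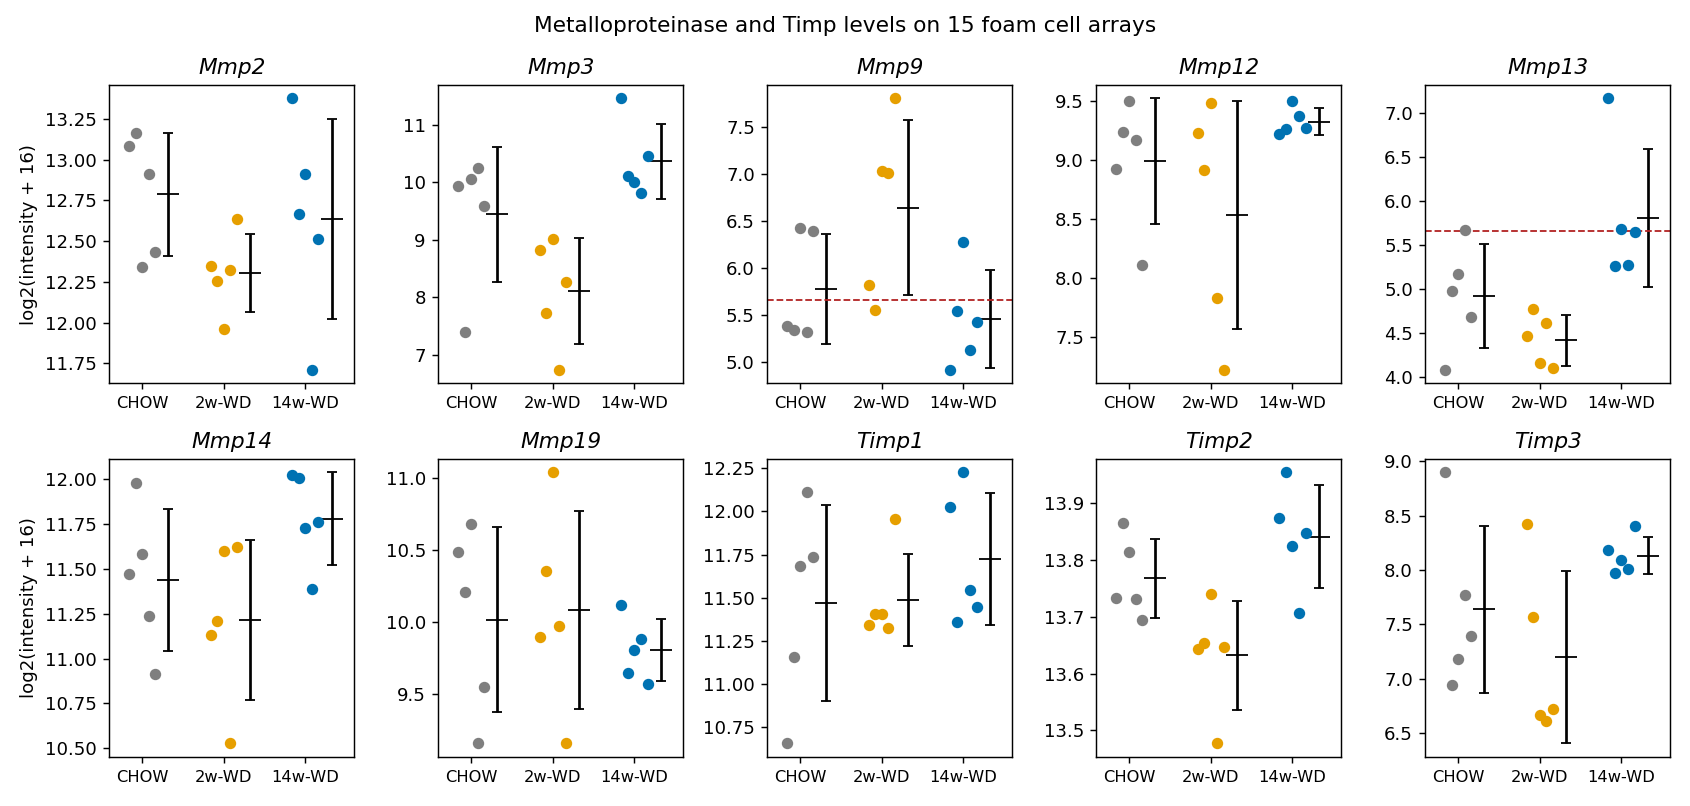
Level of each gene on each array, as log2(intensity + 16), by diet group. Points are the 5 arrays of a group, the black mark and bar beside them are the mean ± SD, and the dashed red line, drawn where it falls within the panel, is the level of 5.66 needed for testing. The Mmp3 points of 14w-WD all lie above those of 2w-WD, and the points of Mmp9 and Mmp13 lie on both sides of the dashed line.

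Stromelysin-1, the product of Mmp3, cuts proteoglycans, fibronectin and laminin and activates other metalloproteinase proenzymes. Its level was 9.93, 7.39, 10.05, 10.24 and 9.58 on CHOW replicates 1 to 5, 8.82, 7.72, 9.02, 6.74 and 8.26 on 2w-WD replicates 1 to 5, and 11.45, 10.10, 10.004, 9.81 and 10.45 on 14w-WD replicates 1 to 5. All 5 arrays of 14w-WD lay above all 5 of 2w-WD, while CHOW overlapped with both, its replicate 2 lying far below its other arrays. Mmp3 averaged 10.36 ± 0.65 in 14w-WD and 8.11 ± 0.92 in 2w-WD (SD, n = 5 each), a log2 change of 2.25 (SE 0.54, 95% interval 1.11 to 3.39, adjusted p = 0.0212 in limma), or 4.76-fold on this scale. Relative to the median change of all genes it was 2.02, and with quantile normalization it was 1.94 (adjusted p = 0.0333 in limma). Among all tested genes, 0.176% had a larger positive change in this comparison. Groups that did not overlap, with 14w-WD above, were found for 7.06% of the tested genes. Against CHOW (9.44 ± 1.17, SD, n = 5), the difference was -1.33 in 2w-WD (SE 0.54, adjusted p = 0.507 in limma) and 0.92 in 14w-WD (SE 0.54, adjusted p = 0.412 in limma), so that neither diet group passed the test against CHOW. Without CHOW replicate 2 these differences were -1.84 in 2w-WD (adjusted p = 0.484) and 0.41 in 14w-WD (adjusted p = 0.706), and with the brightness or the fibroblast covariate the difference of 14w-WD from CHOW was 0.33 or 0.30.

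The call of Mmp3 in 14w-WD against 2w-WD rested on several arrays. Leaving out 2w-WD replicate 2 gave a log2 change of 2.15 that missed the threshold (adjusted p = 0.0570 in limma). The same held on leaving out 2w-WD replicate 4 (1.91, with an adjusted p of 0.0627), 14w-WD replicate 1 (1.98, with 0.0688) and 14w-WD replicate 3 (2.34, with 0.0542). In the same comparison the median difference was 0.38 over 8 fibroblast and 0.36 over 9 macrophage markers, against 0.23 over all genes. The mean level of the fibroblast list was 11.30 in 14w-WD and 10.67 in 2w-WD. For the 10 macrophage markers on the array it was 11.60 in 14w-WD and 11.21 in 2w-WD. Of the macrophage markers 8 of 9 lay above 0 and 1 was called, Tyrobp, an immune signalling adaptor gene (0.38, adjusted p = 0.0261 in limma). Of the fibroblast markers 8 of 8 lay above 0 and 2 were called, where 11.2% of all genes were. Col1a1, the chain of fibrillar collagen type I, and Pdgfra, a growth factor receptor of fibroblasts, were higher by 1.05 (SE 0.31, adjusted p = 0.0402 in limma) and 1.95 (SE 0.52, adjusted p = 0.0291 in limma). The summed intensity of the 8 fibroblast markers ran from 39187 to 52771 in 14w-WD and from 31276 to 42083 in 2w-WD, and 0 of the 8 lay below the filter. That of the 10 macrophage markers on the array ran from 71648 to 86007 in 14w-WD and from 58520 to 78749 in 2w-WD, and 1 of the 10, Itgam, lay below the filter. With the mean of the fibroblast list as a covariate the Mmp3 change was 1.37 (adjusted p = 0.785 in limma), with the macrophage list 1.72 (adjusted p = 0.452), and with array brightness it was 1.50 (adjusted p = 0.583). Under each of these 3 covariates 0 of all tested genes passed, and the part of these signals in the Mmp3 change was not tested further. Mmp3 still passed with the heart muscle list as covariate (2.16, adjusted p = 0.0298 in limma).

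The probe set of Mmp13, which encodes collagenase-3, the main enzyme that cleaves fibrillar collagen in mice, was dim. Its level was 4.09, 4.98, 5.18, 5.68 and 4.69 on CHOW replicates 1 to 5, 4.47, 4.77, 4.16, 4.61 and 4.10 on 2w-WD replicates 1 to 5, and 7.17, 5.27, 5.68, 5.28 and 5.66 on 14w-WD replicates 1 to 5. Only 1 array of CHOW, 0 of 2w-WD and 2 of 14w-WD reached the filter level, yet all 5 arrays of 14w-WD lay above all 5 of 2w-WD. In the fit without a filter, over 18193 genes, Mmp13 was higher in 14w-WD (5.81 ± 0.79) than in 2w-WD (4.42 ± 0.29; SD, n = 5 each) by a log2 of 1.39 (SE 0.33, 95% interval 0.69 to 2.08, adjusted p = 0.0284 in limma). In that fit 5.94% of all genes changed and 5.29% were higher, and 5.22% had 14w-WD above 2w-WD without overlap. The size depended on the pseudocount, being 2.82 with a pseudocount of 1 and 0.62 with 64. On 14w-WD replicate 1 the intensity was 128, against 22.5 to 35.3 on the other arrays of that group, and leaving this array out gave a change of 1.05 (adjusted p = 0.0662 in limma). Leaving out 2w-WD replicates 2, 3, 4 or 5 or 14w-WD replicates 3 or 5 also took the adjusted p over the threshold, to between 0.0526 and 0.0694. With the fibroblast list as a covariate the change was 1.18 (adjusted p = 0.724 in limma), with the macrophage list 1.49 (adjusted p = 0.423) and with the neutrophil list 1.25 (adjusted p = 0.0593). Against CHOW (4.92 ± 0.59) the difference was 0.89 in 14w-WD (SE 0.33, adjusted p = 0.254 in limma) and -0.50 in 2w-WD (SE 0.33, adjusted p = 0.663), in a fit where 0.0934% of all genes changed in 14w-WD and 0% in 2w-WD.

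Mmp12, the macrophage elastase that cuts elastin, lay well above the filter on every array. Its level was 8.92, 9.23, 9.50, 9.17 and 8.10 on CHOW replicates 1 to 5, 9.22, 8.91, 9.48, 7.83 and 7.22 on 2w-WD replicates 1 to 5, and 9.22, 9.26, 9.50, 9.37 and 9.27 on 14w-WD replicates 1 to 5. The groups overlapped, and the low values of 2w-WD came from replicates 4 and 5. The difference of 14w-WD from 2w-WD was 0.79 (SE 0.41, 95% interval -0.06 to 1.65, adjusted p = 0.185 in limma). It was 0.46 without 2w-WD replicate 5, 0.27 with quantile normalization, 0.45 with the brightness covariate and 0.49 with the macrophage covariate. Against CHOW the difference was -0.45 in 2w-WD (adjusted p = 0.692) and 0.34 in 14w-WD (adjusted p = 0.688). Leaving out 2w-WD replicate 5 made the first -0.12, and leaving out CHOW replicate 5 made the second 0.12.

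Mmp13, Mmp12 and Mmp3 lie close together on mouse chromosome 9, in that order, with 1 other protein-coding gene, Mmp1b, among them in the RefSeq annotation of assembly GRCm38.p6. That chromosome carries 10 metalloproteinase genes by name, of which 9 were on the array and 5 were tested. Apart from Mmp3, Mmp12 and Mmp13, the differences of 14w-WD from 2w-WD in this group were -0.51 for Mmp1a, 0.21 for Mmp10, -0.51 for Mmp8, -0.47 for Mmp1b, -0.14 for Mmp20 and 0.36 for Mmp7, none of them past the test. Mmp1b, Mmp20 and Mmp7 lay below the filter level. Mmp3 and Mmp13, whose 14w-WD arrays did not overlap with 2w-WD, and Mmp12 between them are the genes whose upstream sequence is shown here, 250 bases before the annotated start, from RefSeq with build GRCm38.p6. The windows are chr9:7272264-7272513 for Mmp13, chr9:7347124-7347373 for the second of 2 annotated starts of Mmp12, and chr9:7445572-7445821 for Mmp3, all on the + strand. Capitals mark matches to TGANTCA, the binding motif of the transcription factor AP-1, which is made of Fos and Jun proteins.
Mmp13: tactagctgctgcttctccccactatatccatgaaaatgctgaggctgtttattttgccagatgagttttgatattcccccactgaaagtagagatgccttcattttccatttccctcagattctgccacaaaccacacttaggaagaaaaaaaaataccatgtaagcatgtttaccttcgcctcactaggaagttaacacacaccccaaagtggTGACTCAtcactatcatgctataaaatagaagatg
Mmp12: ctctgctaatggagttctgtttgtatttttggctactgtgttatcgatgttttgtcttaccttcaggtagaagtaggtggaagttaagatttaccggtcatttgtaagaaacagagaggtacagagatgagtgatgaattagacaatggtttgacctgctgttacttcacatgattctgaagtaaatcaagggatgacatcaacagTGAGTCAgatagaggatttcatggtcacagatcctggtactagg
Mmp3: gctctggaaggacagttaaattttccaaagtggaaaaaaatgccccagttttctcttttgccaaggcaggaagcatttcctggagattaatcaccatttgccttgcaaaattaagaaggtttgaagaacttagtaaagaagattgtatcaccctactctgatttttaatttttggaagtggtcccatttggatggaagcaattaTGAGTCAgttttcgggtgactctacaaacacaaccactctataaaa
The match begins 35 bases before the annotated start in Mmp13, 44 in Mmp12 and 46 in Mmp3. The motif was searched on both strands, and 6.75% of 32851 promoter windows of the same length hold it. Among the 8 windows found for 7 of the 10 genes, these 3 hold it. The windows of Mmp14, Timp1, Timp2 and Timp3 do not. Neither does that of the first Mmp12 start, chr9:7344147-7344396, which lies directly before the annotated gene. The 3 windows shown are thus those with a match, and their number beside the 6.75% lends no support. A match describes the letters and is no evidence of binding.

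Among 13 tested regulators of metalloproteinase transcription (of 20 on the list), 0 changed in any comparison in limma, and 1 in 2w-WD against CHOW, 0 in 14w-WD against CHOW and 3 in 14w-WD against 2w-WD had an unadjusted p under 0.05. Over all genes 9.76%, 15.9% and 32.1% had one in these comparisons, so that none of the 3 counts exceeds the share over all genes. In 14w-WD against 2w-WD 10 of the 13 lay above 0, with a median of 0.43 against 0.23 over all genes. The 3 with the smallest p were Fos, Jun and Rela. Jun, a subunit of AP-1, averaged 7.39 in 14w-WD and 6.51 in 2w-WD, and differed by 0.87 (SE 0.30, adjusted p = 0.0649 in limma). Its partner Fos averaged 10.62 in 2w-WD and 11.55 in CHOW, and differed by -0.93 (SE 0.29, adjusted p = 0.480 in limma). In 14w-WD Fos averaged 11.18, and differed from 2w-WD by 0.56 (SE 0.29, adjusted p = 0.187 in limma). Rela, a subunit of the inflammatory transcription factor NF-kB, differed by -0.38 in 14w-WD from 2w-WD (SE 0.16, adjusted p = 0.118 in limma).

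Gelatinase B, encoded by Mmp9, and gelatinase A, encoded by Mmp2, cut denatured collagen and the collagen of basement membranes. Mmp9 stood at 5.38, 5.34, 6.43, 5.32 and 6.40 on CHOW replicates 1 to 5, at 5.81, 5.56, 7.03, 7.01 and 7.80 on 2w-WD replicates 1 to 5, and at 4.92, 5.54, 6.28, 5.12 and 5.43 on 14w-WD replicates 1 to 5. Its highest values were those of 2w-WD replicates 3, 4 and 5, and 4 of the 5 arrays of 14w-WD lay below all of 2w-WD. The level reached the filter on 2 arrays of CHOW, 4 of 2w-WD and 1 of 14w-WD. Mmp9 averaged 5.46 ± 0.52 in 14w-WD and 6.64 ± 0.94 in 2w-WD (SD, n = 5 each), and differed by -1.18 (SE 0.39, 95% interval -2.02 to -0.35), which missed the threshold (adjusted p = 0.0597 in limma). In 2w-WD it differed from CHOW (5.77 ± 0.58) by 0.87 (SE 0.39, adjusted p = 0.511 in limma), and in 14w-WD by -0.32 (SE 0.39, adjusted p = 0.703). Its mean over the 10 arrays of CHOW and 14w-WD was 5.62, under the filter level of 5.66, so that Mmp9 was tested only because of 2w-WD, where it was high. The tests of 2w-WD against the other groups are thus not independent of the filter. In the fit without a filter the adjusted p of 14w-WD against 2w-WD was 0.0780 in limma. With the filter, quantile normalization gave -1.43 (adjusted p = 0.0486 in limma) and leaving out 2w-WD replicate 1 gave -1.39 (adjusted p = 0.0183), and these are given as values only.

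The second Mmp9 probe set, which was dimmer (mean 5.18), differed by -0.08 between 14w-WD and 2w-WD. Markers of neutrophils, which store gelatinase B in their granules, were summed over 9 genes and ran between 3563 and 6290 in CHOW, between 3119 and 16307 in 2w-WD and between 2161 and 8031 in 14w-WD. Of these 9 markers 5 lay below the filter (Mpo, Elane, Ltf, Camp and Cxcr2). With the neutrophil list as a covariate the Mmp9 difference of 14w-WD from 2w-WD was -0.84 (adjusted p = 0.101 in limma). Whether neutrophils had a part in the Mmp9 values was not tested.

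Mmp2 was bright in all groups, with a lowest, median and highest level of 12.34, 12.91 and 13.17 in CHOW, 11.96, 12.33 and 12.64 in 2w-WD, and 11.71, 12.67 and 13.38 in 14w-WD. Its difference from CHOW was -0.48 in 2w-WD (SE 0.25, 95% interval -1.01 to 0.05, adjusted p = 0.531 in limma) and -0.15 in 14w-WD (SE 0.25, 95% interval -0.68 to 0.38, adjusted p = 0.773). The second probe set of Mmp2 gave -0.37 and -0.15. In 14w-WD against 2w-WD the difference was 0.33 (adjusted p = 0.365), which became 0.15 without 14w-WD replicate 1 and 0.56 without 14w-WD replicate 4. The 14w-WD arrays spread widely, with replicate 4 lowest and replicate 1 highest of all 15 arrays.

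Mmp14 encodes a protease anchored in the cell membrane, which activates the Mmp2 proenzyme in a complex that includes the Timp2 protein. Its level was 11.47, 11.98, 11.58, 11.24 and 10.91 on CHOW replicates 1 to 5, 11.13, 11.21, 11.60, 10.53 and 11.62 on 2w-WD replicates 1 to 5, and 12.02, 12.01, 11.73, 11.39 and 11.76 on 14w-WD replicates 1 to 5. Of the 14w-WD arrays 4 lay above all of 2w-WD, and replicate 4 overlapped with them. The difference of 14w-WD from 2w-WD was 0.56 (SE 0.24, 95% interval 0.05 to 1.08, unadjusted p = 0.0340, adjusted p = 0.125 in limma). Against CHOW it was 0.34 in 14w-WD (adjusted p = 0.501) and -0.22 in 2w-WD (adjusted p = 0.757). Its other 2 probe sets, with means of 5.35, lay below the filter and differed by -0.44 and -0.07 between 14w-WD and 2w-WD. Averaging the 3 probe sets gave 0.02 in that comparison.

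Mmp19, a secreted protease of basement membrane components, ranged from 9.16 to 10.68 in CHOW, from 9.15 to 11.04 in 2w-WD and from 9.56 to 10.12 in 14w-WD. The groups overlapped throughout. The difference of 14w-WD from 2w-WD was -0.28 (SE 0.36, 95% interval -1.04 to 0.48, adjusted p = 0.611 in limma), and -0.04 without 2w-WD replicate 3. It was -0.67 with quantile normalization (adjusted p = 0.229 in limma) and -0.54 with averaged probe sets (adjusted p = 0.0815). From CHOW Mmp19 differed by 0.07 in 2w-WD (adjusted p = 0.958) and by -0.21 in 14w-WD (adjusted p = 0.780). Averaged probe sets made the latter -0.57 (adjusted p = 0.196 in limma). A second probe set below the filter (mean 5.59) differed by -0.81 between 14w-WD and 2w-WD.

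**Figure D2:**
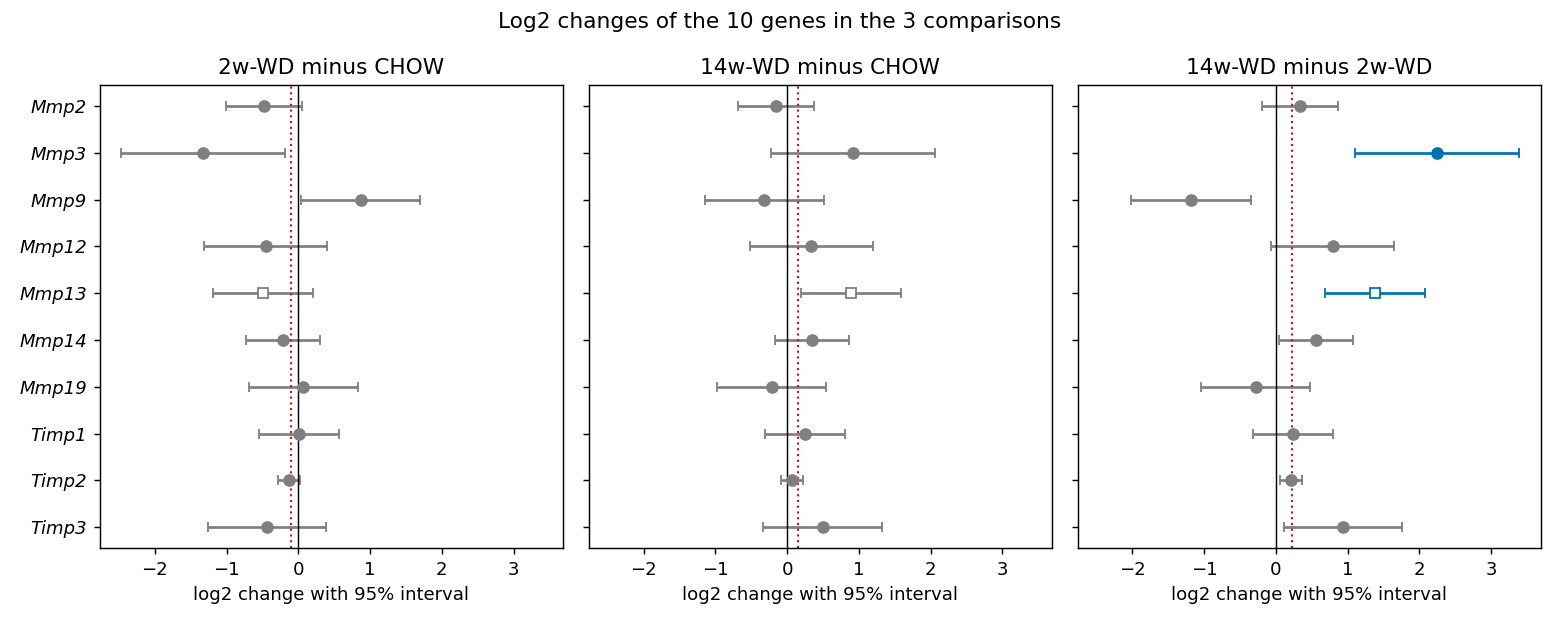
Log2 change of each gene with its 95% interval in the 3 comparisons, the first-named group minus the second. Blue marks an adjusted p under 0.05 and grey the rest, open squares are Mmp13 from the fit without a filter, and the dotted red line is the median change of all tested genes. Blue is seen only for Mmp3 and Mmp13, in 14w-WD minus 2w-WD.

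Of the inhibitors, Timp1, a secreted inhibitor that pairs with the Mmp9 proenzyme, missed the threshold in all 3 comparisons. Its lowest, median and highest level was 10.66, 11.69 and 12.11 in CHOW, 11.32, 11.40 and 11.96 in 2w-WD, and 11.36, 11.55 and 12.23 in 14w-WD. The groups overlapped in all comparisons. The difference of 14w-WD was 0.24 from 2w-WD (SE 0.26, 95% interval -0.32 to 0.79, adjusted p = 0.549 in limma) and 0.25 from CHOW (95% interval -0.30 to 0.81, adjusted p = 0.648). In 2w-WD it differed from CHOW by 0.02 (95% interval -0.54 to 0.57, adjusted p = 0.987).

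Timp2 encodes an inhibitor that also docks the Mmp2 proenzyme to the Mmp14 protein. Its brightest probe set stood at 13.73, 13.86, 13.81, 13.73 and 13.69 on CHOW replicates 1 to 5, at 13.64, 13.65, 13.74, 13.48 and 13.65 on 2w-WD replicates 1 to 5, and at 13.87, 13.95, 13.83, 13.71 and 13.85 on 14w-WD replicates 1 to 5. All values lay within a narrow band, and 2w-WD replicate 3 and 14w-WD replicate 4 kept those groups from separating. The difference of 14w-WD from 2w-WD was 0.21 (SE 0.07, 95% interval 0.06 to 0.36, adjusted p = 0.0683 in limma), which is close to the median change of all genes (0.23), and with quantile normalization it was 0.11 (adjusted p = 0.271). Leaving out 14w-WD replicate 4 gave 0.24, which passed (adjusted p = 0.0470 in limma). From CHOW it differed by -0.14 in 2w-WD (adjusted p = 0.539) and by 0.07 in 14w-WD (adjusted p = 0.628). The next brightest probe set, tested by itself among all probe sets above the filter, averaged 13.53 ± 0.05 in 14w-WD and 13.14 ± 0.25 in 2w-WD (SD, n = 5 each) and was higher by 0.40 (SE 0.11, adjusted p = 0.0296 in limma). The third and the fourth gave 0.77 (adjusted p = 0.185) and 0.07 (adjusted p = 0.815), and 2 more lay below the filter.

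Timp3, whose product is held in the extracellular matrix and also inhibits the shedding protease Adam17, varied more within groups. Its level was 8.90, 6.94, 7.18, 7.77 and 7.39 on CHOW replicates 1 to 5, 8.42, 7.57, 6.66, 6.61 and 6.72 on 2w-WD replicates 1 to 5, and 8.19, 7.97, 8.09, 8.01 and 8.40 on 14w-WD replicates 1 to 5. The 14w-WD arrays lay above 4 of the 5 arrays of 2w-WD, with 2w-WD replicate 1 above them all. The difference of 14w-WD from 2w-WD was 0.94 (SE 0.39, 95% interval 0.11 to 1.76, adjusted p = 0.114 in limma), and leaving out 2w-WD replicate 1 raised it to 1.24, which passed (adjusted p = 0.0165). With array brightness as a covariate it was 0.02. From CHOW Timp3 differed by -0.44 in 2w-WD (SE 0.39, adjusted p = 0.690 in limma) and by 0.49 in 14w-WD (SE 0.39, adjusted p = 0.541).

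The probe sets of Timp3 disagreed on the direction. The second brightest averaged 7.33 ± 0.62 in 14w-WD and 6.35 ± 0.98 in 2w-WD, and differed by 0.98 (SE 0.43, adjusted p = 0.124 in limma over all probe sets above the filter). The third, only slightly dimmer (mean 6.76), averaged 6.35 ± 0.33 in 14w-WD and 7.06 ± 0.35 in 2w-WD, and differed by -0.70 (SE 0.24, adjusted p = 0.0629 in limma over all probe sets above the filter). No direction is therefore given for Timp3.

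**Figure D3:**
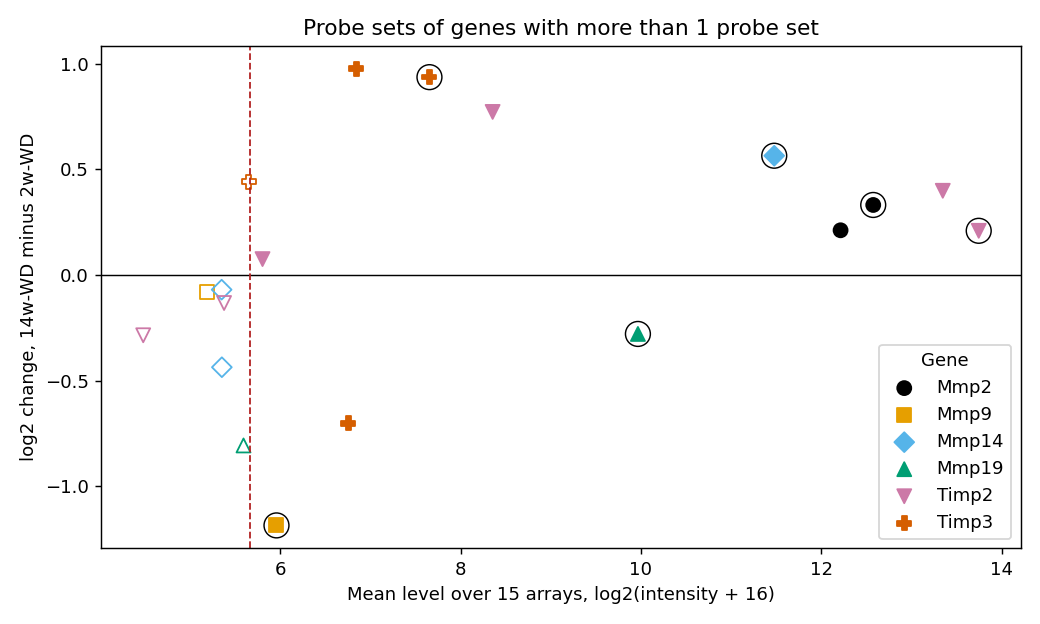
Log2 change in 14w-WD minus 2w-WD of every probe set of the 6 genes that have more than 1, against its mean level over the 15 arrays as log2(intensity + 16). Filled symbols lie at or above the filter (dashed red line at 5.66) and open ones below it, and a black ring marks the probe set that represents the gene. The probe sets of Mmp2 and the brighter ones of Timp2 lie on 1 side of 0, while those of Timp3 lie on both.

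For the 3 tested genes with the highest mean, the genes with the most similar profile were found by Pearson's r of the log2 values over the 15 arrays, among 11924 other genes. They were chosen for this likeness, and the arrays share their diet groups and differ in brightness, so the values are a description. Timp2 went with Man2b1 (r = 0.93), a lysosomal mannosidase gene, Serpinb6a (r = 0.93), a serine protease inhibitor gene, and Lyz2 (r = 0.92), the macrophage lysozyme gene. Mmp2 went with Ccn5 (r = 0.91), which encodes a secreted matrix-associated protein, Uggt1 (r = 0.90), which encodes a folding sensor of the endoplasmic reticulum, and Arhgef2 (r = 0.89). Timp1 went with Papss2 (r = 0.90), an enzyme gene of sulfate activation, Spopl (r = 0.87) and Fxyd5 (r = 0.85).

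Other genes of matrix turnover were read from 4 further lists. Of 18 matrix substrates 16 were tested, and 3 changed, all higher in 14w-WD than in 2w-WD, where 10.1% of all genes were called higher. Fn1, the fibronectin gene, averaged 13.40 in 14w-WD and 12.48 in 2w-WD and was higher by 0.92 (SE 0.21, adjusted p = 0.0196 in limma). Fbln5, which encodes a protein of elastic fibre assembly, averaged 8.43 in 14w-WD and 6.73 in 2w-WD and was higher by 1.70 (SE 0.39, adjusted p = 0.0190 in limma). Col1a1, given above and also on the fibroblast list, was the third. The median of the 16 was 0.50 against 0.23 over all genes, and 13 lay above 0. Against CHOW 0 of the 16 changed in limma, with an unadjusted p under 0.05 for 4 in 2w-WD, against 9.76% of all genes, and for 1 in 14w-WD, against 15.9%.

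Of the other metalloproteinases and Timp4, 8 of 17 were tested and 0 changed in any comparison in limma, where 1 had an unadjusted p under 0.05 in 14w-WD against 2w-WD (32.1% over all genes) and 0 had one against CHOW. In 14w-WD against 2w-WD only 2 of the 8 lay above 0 and their median was -0.48. The smallest p-values were those of Mmp1a (-0.51, SE 0.24, adjusted p = 0.145 in limma), Mmp24 (-0.46, SE 0.24, adjusted p = 0.193) and Timp4, an inhibitor known from heart muscle. Timp4 averaged 6.81 in 2w-WD and 5.84 in CHOW, and differed by 0.96 (SE 0.48, adjusted p = 0.530 in limma). The heart muscle markers had a median change of 1.43 in that comparison, and any link between them and Timp4 was not tested. Of 15 genes of the related ADAM and ADAMTS proteases 11 were tested and 0 changed in limma, where an unadjusted p under 0.05 was found for 1 in 2w-WD against CHOW, 2 in 14w-WD against CHOW and 6 in 14w-WD against 2w-WD. The shares over all genes were 9.76%, 15.9% and 32.1% in that order. The first 2 counts lie near them and the third lies above its share, but the 11 were not tested as a set. In 14w-WD against 2w-WD 7 of the 11 lay above 0, and 0 were called where 11.2% of all genes were. Adam17, which sheds tumour necrosis factor from the cell surface, averaged 10.31 in 14w-WD and 8.51 in 2w-WD, and differed by 1.80 (SE 0.61, adjusted p = 0.0617 in limma). Adam8 had a difference of 0.79 (SE 0.29, adjusted p = 0.0812) and Adam12 one of -0.63 (SE 0.25, adjusted p = 0.0961).

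Among 16 activators and other inhibitors 11 were tested and 0 changed in any comparison in limma, where 3 had an unadjusted p under 0.05 in 14w-WD against 2w-WD and 0 had one against CHOW. The first count is no higher than the 32.1% over all genes, and its 3 genes are named by the rule for such lists. Plaur, the receptor of the plasminogen activator urokinase, averaged 8.36 in 14w-WD and 7.58 in 2w-WD, and differed by 0.78 (SE 0.32, adjusted p = 0.111 in limma). Pcsk5, a proprotein convertase gene, had a difference of -1.14 (SE 0.52, adjusted p = 0.139) and St14, the gene of the membrane protease matriptase, one of 0.42 (SE 0.19, adjusted p = 0.146). St14 averaged 5.57 in 2w-WD, 5.73 in CHOW and 5.99 in 14w-WD, near the filter level of 5.66. It passed the filter only through 14w-WD, where it was high, so its test is not independent of the filter and lends no support.

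**Figure D4:**
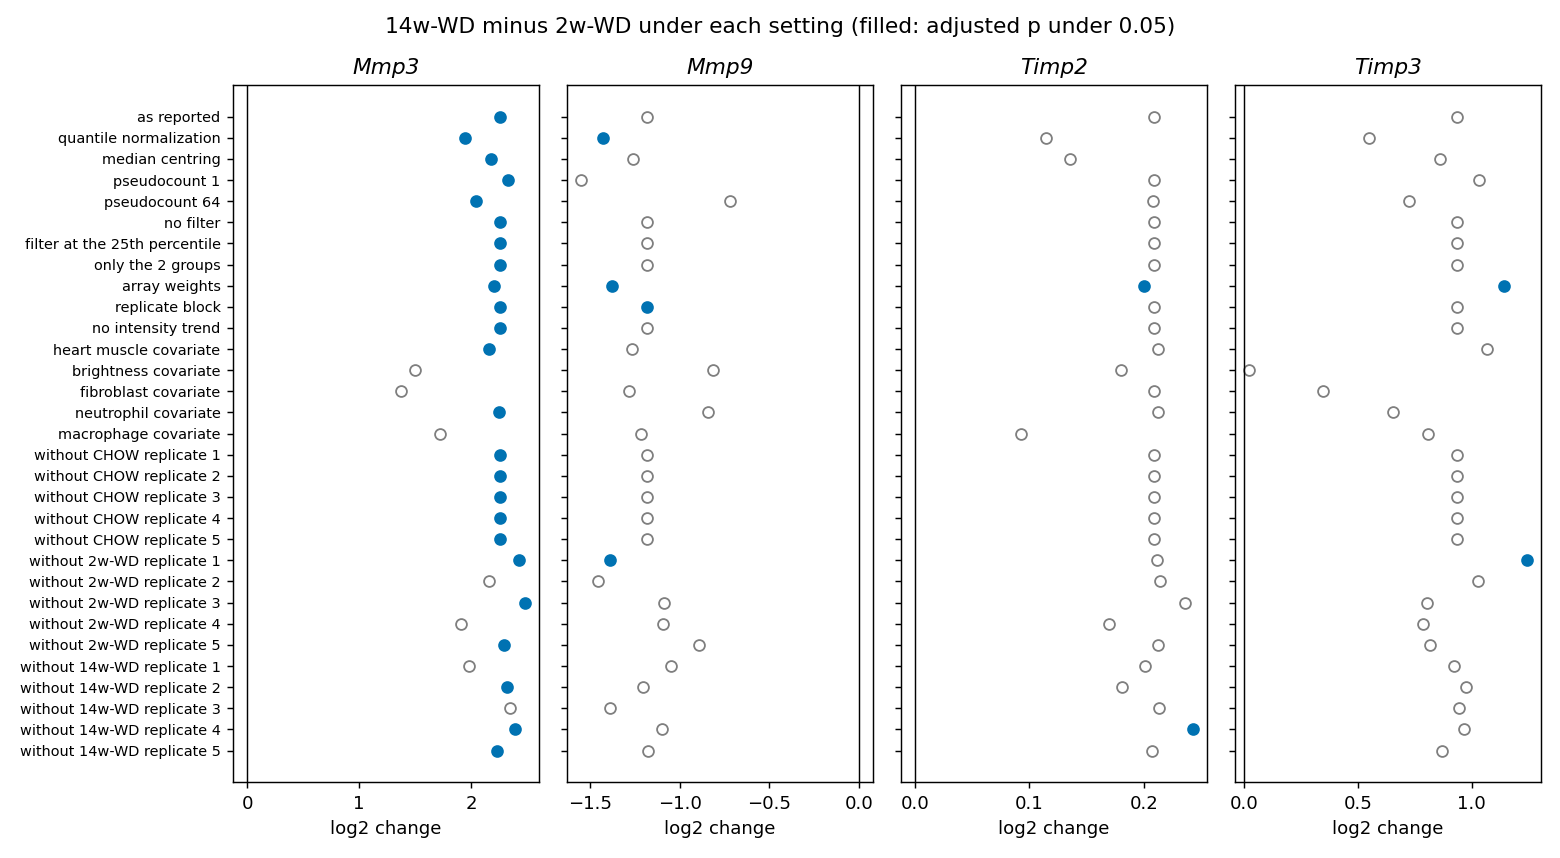
Log2 change in 14w-WD minus 2w-WD of Mmp3, Mmp9, Timp2 and Timp3 as reported and under each alternative setting, 1 row a setting, with a scale of its own for each gene. Filled points have an adjusted p under 0.05 and open ones do not. Mmp3 stays to the right of 0 and Mmp9 to the left in every row, and the call of Mmp3 is lost in 7 rows.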

How the data were processed

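RNA of laser-captured foam cells was extracted, amplified and biotin-labelled for Affymetrix mouse arrays, per the labels' protocols. The deposited table holds 1 linear intensity per probe set (45037) and array. The authors' summarisation, background correction and normalization of the intensities are not stated in the labels or headers. Array medians ran from 31.7 to 38.2, no 2 columns were identical, and correlations between arrays ran from 0.862 to 0.972. Arrays have no counting depth, and their number limits the precision.

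Probe sets with 1 gene in GEO's platform annotation (34945; 932 had several and 9160 none) gave 18193 genes, each represented by its brightest probe set. Their names were matched by gene number to RefSeq for 34741 probe sets. Values became log2(intensity + 16). Genes at or above the median of all probe sets entered limma 3.58.1 (lmFit, eBayes with an intensity trend, R 4.3.3) with all 15 arrays and 3 pairwise contrasts, two-sided, with Benjamini-Hochberg adjustment. The procedure was tested on simulated data. Alternatives were 2 scalings, other pseudocounts and filters, averaged or single probe sets, only the 2 groups, array weights, a replicate block, no trend, covariates, and leaving out each array. The fibroblast, neutrophil and macrophage covariates were chosen after seeing the data.

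The genes and lists were chosen with earlier results of these data known. All 10 genes are named. Each further list gives its changed genes, or else the 3 with the smallest unadjusted p. For the 3 brightest tested genes the 3 most correlated genes are named. Promoter windows came from RefSeq, GRCm38.p6, for 7 of the 10 genes.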

Additional observations from a re-analysis of the deposited data

Results flagged for a closer look

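In 30 sets of 5 arrays (10 genes in 3 groups), 3 arrays stood apart from the other 4 of their group by Dixon's criterion (0.71 for 5 values), which chance meets in about 1 of 20 sets. Mmp3 was at 7.39 on CHOW replicate 2, against 9.58 to 10.24 on the other CHOW arrays. Mmp13 was at 7.17 on 14w-WD replicate 1, against 5.27 to 5.68 on the others of that group. Timp1 was at 11.96 on 2w-WD replicate 5, against 11.32 to 11.41 on the others of that group.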

How the results depend on the processing

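Over the 9 tested genes, the settings left most log2 changes on the same side of 0 and of the threshold. In 2w-WD against CHOW, and for these 9 genes in 14w-WD against CHOW, 0 calls were made under every setting run. As reported, 1 of the 9 genes was called in 14w-WD against 2w-WD. The number was 2 with quantile normalization or the replicate block and 4 with array weights. It was 0 with the brightness, fibroblast or macrophage covariate, and leaving out 1 array gave 0 to 3. Without a filter or with one at the 25th percentile 2 of the 10 genes were called, Mmp3 and Mmp13. Mmp9 was among those called with quantile normalization, the replicate block, array weights and without 2w-WD replicate 1. It passed the filter only through 2w-WD, so these counts lend no support. Over all genes 14w-WD against 2w-WD gave 1338 calls as reported, of 11925 tested, and 1081 without a filter, of 18193. It gave 928 with quantile normalization, 3839 with array weights, 2122 with the replicate block and 610 with the neutrophil covariate. It gave 0 with the brightness, fibroblast or macrophage covariate. With 1 array left out the count ran from 164 (without 14w-WD replicate 1) to 3536 (without 2w-WD replicate 1). In 14w-WD against CHOW (1 as reported) all genes gave 0 with quantile normalization, averaged probe sets, or the brightness or fibroblast covariate, 7 with a pseudocount of 64, 11 with the neutrophil covariate, 17 without a filter or with one at the 25th percentile, 20 with the replicate block, 122 with only the 2 groups, 2234 with array weights, and 0 to 201 with 1 array left out.

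Some changes turned sign, none of them past the threshold as reported or after turning. The widest were in 14w-WD against 2w-WD, with 0.94 as reported for Timp3 and 0.56 for Mmp14. In 2w-WD against CHOW these were Mmp14 (0.28 with averaged probe sets and with the macrophage covariate), Mmp19 (-0.032 with averaged probe sets, -0.060 with the heart muscle and -0.063 with the fibroblast covariate, -0.17 to 0.30 with 1 array left out) and Timp1 (-0.024 with array weights, -0.058 with the neutrophil and -0.091 with the macrophage covariate, -0.19 to 0.18 with 1 array left out). In 14w-WD against CHOW they were Mmp19 (0.10) and Timp1 (-0.044) with the fibroblast covariate, Mmp2 (0.055 with array weights, -0.34 to 0.079 with 1 array left out), Timp3 (-0.23 with the brightness covariate) and the dimmest tested probe set of Timp2 (-0.11). In 14w-WD against 2w-WD they were Mmp14 (-0.031 with the macrophage covariate), Mmp19 (0.16) and Timp1 (-0.18) with the fibroblast covariate, and Mmp2 (-0.045 with the brightness, -0.036 with the fibroblast and -0.076 with the macrophage covariate). The third brightest probe set of Timp3 gave 0.20 in 2w-WD against CHOW, -0.50 in 14w-WD against CHOW and -0.70 in 14w-WD against 2w-WD. The cause was not tested.

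Mmp9, Timp2 and Timp3 in 14w-WD against 2w-WD passed with array weights (-1.38, 0.20 and 1.14). No direction is given for Timp3 all the same, since its probe sets disagreed. No label says what a replicate number shares. Deviations of same-numbered arrays from their group means correlated above 0.1 in 4 of 5 pairs of 2w-WD against CHOW, 2 of 5 of 14w-WD against CHOW and 1 of 5 of 14w-WD against 2w-WD (-0.17 to 0.48 in all), and 6 of 15 arrays correlated best with their own number. Pairing was not assumed, since no label gives it. How many such matches would arise by chance was not worked out, and whether a number marks a shared source was not tested further. With the replicate block Mmp9 also passed (adjusted p = 0.0161 in limma). Since Mmp9 passed the filter only through 2w-WD, where it was high, its passes under these settings lend no support. Dim probe sets, Mmp13 above all, limit what these arrays can show.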

Other observations

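The spread between arrays of a group differed. The SD of log2 levels of Mmp12 was 0.53 among CHOW arrays, 0.97 among 2w-WD arrays and 0.11 among 14w-WD arrays. That of Timp3 was 0.77 among CHOW arrays, 0.79 among 2w-WD arrays and 0.17 among 14w-WD arrays, and that of Mmp19 was 0.64 among CHOW arrays, 0.69 among 2w-WD arrays and 0.22 among 14w-WD arrays. Mmp2 had its smallest SD in another group, with 0.38 among CHOW arrays, 0.24 among 2w-WD arrays and 0.61 among 14w-WD arrays. Over the 9 tested genes the SD was smallest in 14w-WD for 6, and over all 11925 tested genes it was smallest there for 60.6%. The median SD over all tested genes was 0.43 among CHOW arrays, 0.51 among 2w-WD arrays and 0.32 among 14w-WD arrays.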
